A study of Caenorhabditis elegans with 16 samples.

Results

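The genes described here encode the subunits of the 26S proteasome of the nematode *C. elegans*. They were taken from the gene count table by name, as every gene whose symbol begins with pas-, pbs-, rpn- or rpt-. The rule found 33 of the 20447 protein-coding genes of the table, namely 7 *pas*, 7 *pbs*, 6 *rpt* and 13 *rpn* genes. The rule uses names and no expression values, although it was set with earlier results of these data known. They lie on chromosomes I (10 genes), II (7), III (8), IV (3) and V (5), so that none is on chromosome X, which carries *ets-4*.

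The study asked how *C. elegans* survives the cold, and profiled mRNA of whole day-1 adults in 4 strains at 2 temperatures. The strains were wild type (N2, here wt), the *ets-4(rrr16)* mutant, and 2 strains that carry a further mutation in addition to *ets-4(rrr16)*. The further mutation was *daf-16(mu86)* in one double mutant (*daf-16; ets-4*) and *pqm-1(ok485)* in the other (*pqm-1; ets-4*). All 3 genes encode transcription factors, and all 3 mutant strains carry *ets-4(rrr16)*, so that no strain here is mutant for *daf-16* or *pqm-1* alone. Animals at 20 °C were collected as grown, and animals at 4 °C had 2 h of adaptation at 10 °C followed by 24 h at 4 °C. Each of the 8 groups had 2 replicates, and each library came from 1000 animals.

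The 26S proteasome is the main protease for proteins that are marked with ubiquitin chains. Its barrel-shaped core consists of outer rings of alpha subunits (*pas* genes), which gate the entry, and inner rings of beta subunits (*pbs* genes), some of which carry the proteolytic sites. The regulatory particle at the end of the barrel recognises, unfolds and feeds in the substrate. It consists of a ring of ATPases (*rpt* genes) and of non-ATPase subunits (*rpn* genes) that act as scaffolds, ubiquitin receptors, a deubiquitinase and a lid. The roles given below are those known from the yeast and human orthologues unless the worm is named. In *C. elegans*, the transcription factor SKN-1A raises the transcription of proteasome genes when proteasome activity is low, and forced expression of *rpn-6.1* extends lifespan.

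The 16 libraries held between 32046029 and 48770269 counted reads, with a median of 39330449, and all 33 genes passed the filter on low counts. Their reads made up between 0.834% and 1.15% of the counted reads of a library. Values are given as CPM (reads of a gene scaled to the same library size) on library sizes scaled by TMM, in the order replicate 1 and replicate 2. The study calls the replicates biological and, for its survival assays, takes this to mean separate batches of worms on different days. It does not state that for the RNA libraries, so part of the spread behind the p-values may be technical. Differences are log2 fold changes from edgeR's quasi-likelihood fit with their standard errors (SE), and a gene was called when its p-value, adjusted by the Benjamini-Hochberg method over all genes tested, was under 0.05. Libraries with the same replicate number deviated together in all group pairs, and the calls of the fit that also held the replicate number as a term, here the blocked fit, are therefore given beside those of the fit without it. Whole-gene counts check the mutant labels only in part, since the extent of each allele is not given in the sources used here. *daf-16* was at 107, 104 and 116 CPM in 3 of the 4 *daf-16; ets-4* libraries but at 175 CPM in the library labelled replicate 2 at 20 °C, within the 155 to 203 CPM of the other strains at that temperature. *pqm-1* was at 5.98 and 16.2 CPM in *pqm-1; ets-4* at 20 °C, below the other strains in the same replicate number (15.6 to 27.3 and 22.6 to 44.9 CPM), and at 149.7 and 143 CPM against 187 to 269 CPM at 4 °C. The *ets-4* transcript was at 26.3 and 25.9 CPM in wt and between 76.9 and 202 CPM in the strains with *ets-4(rrr16)* at 20 °C, whereas at 4 °C it was at 60.3 and 84.5 CPM in wt and between 4.35 and 12.8 CPM in those strains.

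The transcripts of the subunit genes were abundant and, per length of exon, close to each other. Divided by the exon length in kb, the mean level over the 16 libraries ran from 149 CPM per kb for *rpn-6.1* to 473 CPM per kb for *pas-5* in the 32 genes other than *rpn-6.2*, a 3.19-fold range. *rpn-6.2*, the paralogue of the lid scaffold gene *rpn-6.1*, was the exception at 16.8 CPM per kb, which was 8.82-fold below *rpn-6.1*. Only uniquely mapped reads were counted, so the split of reads between these paralogues is uncertain. The alpha genes ranged from 275 to 473 CPM per kb and the beta genes from 164 to 346 CPM per kb. The ATPase genes ranged from 152 to 292 CPM per kb, and the non-ATPase genes other than *rpn-6.2* from 149 to 310.0 CPM per kb. The exons of 10 of the 33 genes overlap those of another protein-coding gene, and for these part of the reads may belong to the neighbour.

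**Figure D1:**
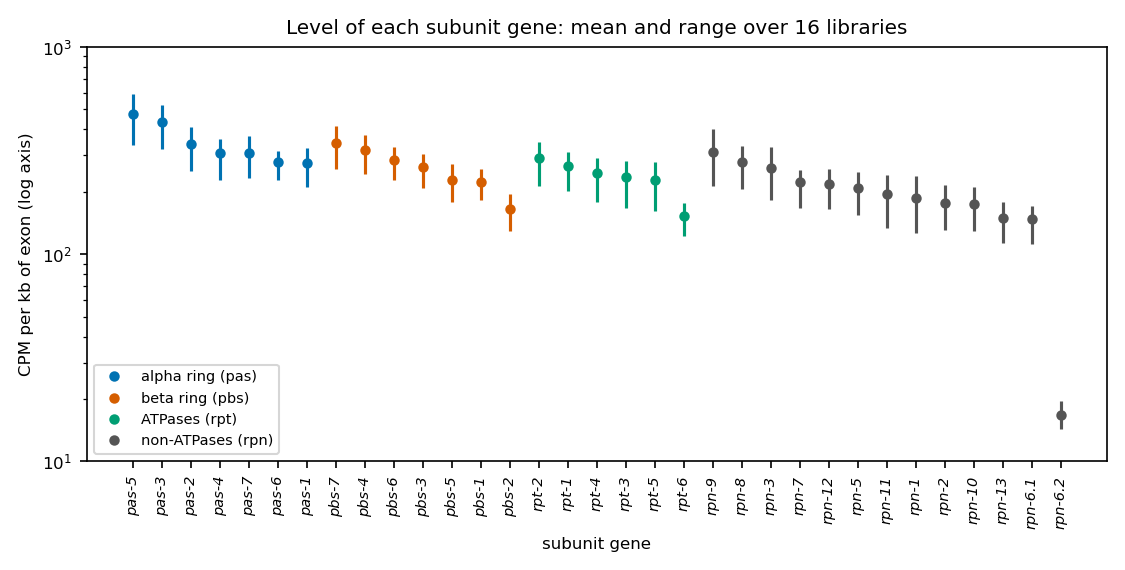
Mean level of each of the 33 subunit genes in CPM per kb of exon on a log axis, with the lowest and highest of the 16 libraries as a bar and the colour giving the family. All genes but *rpn-6.2* (16.8 CPM per kb) sit between 149 and 473 CPM per kb.

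Across the libraries each gene varied little. The highest library was 1.37-fold to 1.89-fold above the lowest, with *rpn-9*, a lid subunit gene, at the upper end. The genes also varied together. The correlation of a gene's log2 level with the mean of the other members over the 16 libraries had a median of 0.974 and was above 0.9 for 29 of the 33 genes, compared with 2.57% of the 15742 other genes tested. These libraries share strains, temperatures and replicate numbers, so the correlation describes them and is no test. The exceptions were *rpn-6.2* (r = -0.23), *pbs-1* (0.85), *rpn-11* (0.88) and *rpn-2* (0.89).

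**Figure D2:**
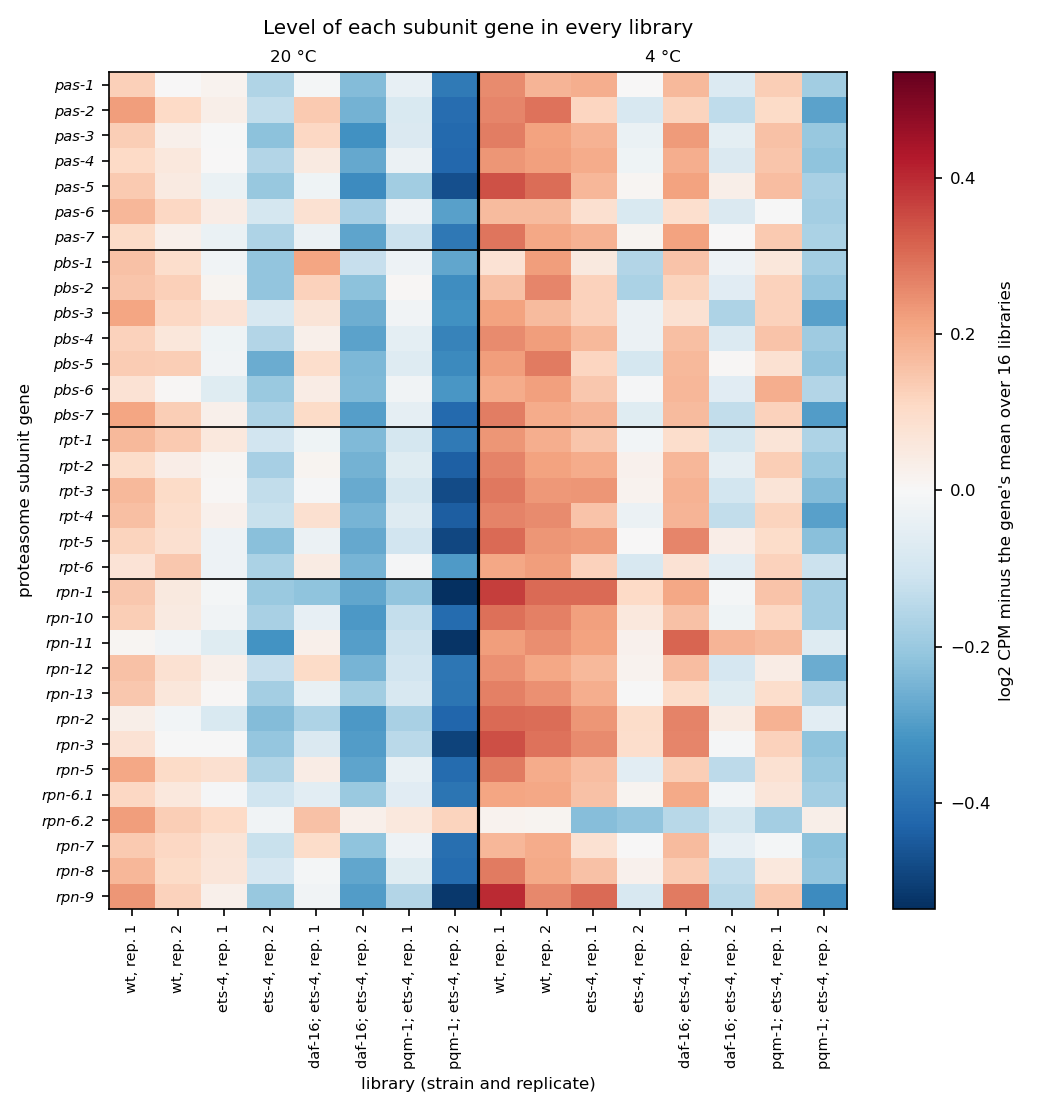
Log2 CPM of each subunit gene in each of the 16 libraries minus the gene's own mean over all libraries, with red for higher and blue for lower values, 20 °C on the left and 4 °C on the right. The wt columns at 4 °C are the most evenly red and the column of *pqm-1; ets-4*, replicate 2, at 20 °C is the deepest blue, except for *rpn-6.2*.

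The first question was what 24 h at 4 °C did to the subunit transcripts. In each strain the fitted change with cold was positive for 32 of the 33 genes and negative for *rpn-6.2*, whereas of all genes tested between 47.5% and 48.3% were positive. When libraries were scaled by their totals alone, 28, 29, 28 and 31 genes were positive in the 4 strains, in the order in which they were named. The changes were small. The median over the 33 genes was 0.13 in wt (1.10-fold), 0.16 in *ets-4* (1.119-fold), 0.16 in *daf-16; ets-4* (1.11-fold) and 0.19 in *pqm-1; ets-4* (1.14-fold), beside medians over all genes of -0.03, -0.02, -0.03 and -0.04. Within replicate numbers, 28 genes were higher at 4 °C in 8 of 8 pairs of libraries, *pas-2*, *pbs-2* and *pas-6* in 7, *pbs-1* in 6, and *rpn-6.2* in 0. The 4 strains share no libraries in these comparisons. Without the library labelled *daf-16; ets-4* replicate 2 at 20 °C, in which *daf-16* was not low, the median in *daf-16; ets-4* became 0.004, and within replicate 1 it was 0.14. In *pqm-1; ets-4* the median became -0.06 when its first replicate at 4 °C was left out, which sets a group with replicate 2 alone against both replicates.

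Few of these changes passed the test without the block. In wt no gene was called, although 12.9% of all genes were called as higher and 17.8% as lower with cold, and 1 of the 33 genes had an unadjusted p under 0.05. In *ets-4*, *rpn-6.2* alone was called, as lower (18.3% of all genes, with 15% called as higher). In both double mutants *rpn-2* alone was called, as higher (19% of all genes in *daf-16; ets-4* and 18% in *pqm-1; ets-4*, with 19.5% and 19% called as lower). The blocked fit called 6 genes as higher in wt, 9 as higher and *rpn-6.2* as lower in *ets-4*, 10 as higher in *daf-16; ets-4* and 14 as higher in *pqm-1; ets-4*. For the blocked fit the share of all genes called as higher was 19%, 21.3%, 25.8% and 25.9% in the same order. The share called as lower was 22.6%, 23.1%, 28.5% and 25.8%. The 6 genes in wt are near the share called as higher and the 14 genes in *pqm-1; ets-4* are above it. With a replicate term for each temperature, 8 members were called as higher in *pqm-1; ets-4*, and without a block 1 was. The members vary together, so these counts are a description and no test. The levels at 4 °C were above those at 20 °C without overlap for 27 of the 33 genes in wt, against 34.6% of all genes. In the other strains this held for 12, 9 and 4 genes, with backgrounds of 33.3%, 32.9% and 31.2% and with replicates that lay further apart than in wt. *rpn-6.2* was the 1 gene below without overlap in each strain, where the background was 36.1%, 35.4%, 37.5% and 30%.

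The scaffold genes of the base of the regulatory particle, *rpn-2* and *rpn-1*, stood near the top of the list. By mean change over the 4 strains *rpn-2* stood first, then the lid gene *rpn-11*, then *rpn-1*. *rpn-2* (chromosome III, 6199184 to 6202594, build WBcel235) encodes the scaffold that holds the receptor RPN-13. It was at 569 and 549.8 CPM in wt, 525 and 473 CPM in *ets-4*, 496 and 449 CPM in *daf-16; ets-4* and 493 and 414 CPM in *pqm-1; ets-4* at 20 °C. At 4 °C it was at 686 and 685 CPM in wt, 654 and 595 CPM in *ets-4*, 668 and 573 CPM in *daf-16; ets-4* and 632 and 535 CPM in *pqm-1; ets-4*. Both libraries at 4 °C were above both at 20 °C in every strain. The log2 change was 0.29 in wt, 0.32 in *ets-4*, 0.39 in *daf-16; ets-4* and 0.36 in *pqm-1; ets-4*, each with an SE of 0.12 (n = 2 per group). The adjusted edgeR p was 0.089, 0.059, 0.023 and 0.034 in the same order, and 0.0055, 0.0028, 0.00068 and 0.0012 in the blocked fit. Without the block, the call in *daf-16; ets-4* was lost without its second replicate at 20 °C (edgeR adjusted p = 0.190) or its first at 4 °C (0.270), and the call in *pqm-1; ets-4* likewise (0.236 and 0.477).

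*rpn-1* (chromosome IV, 6906420 to 6909913), the other base scaffold, which docks ubiquitin-like domains of shuttle factors, had the highest CPM of all members. At 20 °C it was at 647 and 607 CPM in wt, 581 and 509.9 CPM in *ets-4*, 504 and 482 CPM in *daf-16; ets-4* and 505 and 403 CPM in *pqm-1; ets-4*. At 4 °C it was at 757 and 722 CPM in wt, 722 and 630.2 CPM in *ets-4*, 675 and 580.2 CPM in *daf-16; ets-4* and 649.5 and 515 CPM in *pqm-1; ets-4*. The temperatures did not overlap in any strain. The log2 changes were 0.24, 0.31, 0.35 and 0.36, called in the blocked fit in all 4 strains (edgeR adjusted p from 0.0024 to 0.028) and in none without it (0.068 to 0.238).

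Of the lid, *rpn-11* and *rpn-3* had the largest changes. *rpn-11* encodes the metalloprotease that removes ubiquitin chains from substrates as they enter. It was at 241 and 236 CPM in wt at 20 °C and at 279.6 and 284 CPM at 4 °C, and in *ets-4* at 229 and 191 CPM at 20 °C and at 277 and 243 CPM at 4 °C. In *daf-16; ets-4* it went from 244 and 195 CPM to 297 and 271 CPM, and in *pqm-1; ets-4* from 221 and 166 CPM to 269 and 228 CPM. Both libraries at 4 °C were the higher ones in every strain, by 0.24, 0.31, 0.37 and 0.36 on the log2 scale, and the blocked fit called the mutant strains (edgeR adjusted p = 0.015, 0.0045 and 0.0056) and not wt (0.051). The exons of *rpn-11* overlap *pqn-48* on the other strand. *rpn-3*, a lid subunit gene, had log2 changes of 0.28, 0.28, 0.32 and 0.27, called in the blocked fit in all 4 strains (edgeR adjusted p = 0.012, 0.013, 0.0051 and 0.012) and in none without it.

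The other lid genes had smaller changes. *rpn-6.1* (chromosome III, 6959110 to 6962001) encodes the lid scaffold that clamps the regulatory particle to the core. It was at 263 and 252 CPM in wt at 20 °C and at 281 and 281 CPM at 4 °C, with log2 changes of 0.13, 0.14, 0.22 and 0.16 over the 4 strains. The blocked fit called it in *daf-16; ets-4* alone (edgeR adjusted p = 0.025). *rpn-12* had log2 changes of 0.10 to 0.15 and *rpn-5*, *rpn-7* and *rpn-8* had mean changes over the strains of 0.11, 0.08 and 0.13, with no call in any strain in either fit. *rpn-9* was called in the blocked fit in both double mutants (0.23 and 0.25; edgeR adjusted p = 0.047 and 0.036).

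*rpn-6.2* (chromosome III, 8999817 to 9001999) was the only member with lower values in the cold. At 20 °C it was at 30.5 and 28.6 CPM in wt, 28.1 and 25.8 CPM in *ets-4*, 29.1 and 26.6 CPM in *daf-16; ets-4* and 27.1 and 28.4 CPM in *pqm-1; ets-4*. At 4 °C it was at 26.5 and 26.3 CPM in wt, 22.3 and 22.5 CPM in *ets-4*, 23.5 and 24.5 CPM in *daf-16; ets-4* and 23.03 and 26.7 CPM in *pqm-1; ets-4*. Both libraries at 4 °C were below both at 20 °C in every strain. The log2 changes were -0.16, -0.27, -0.21 and -0.16 with SEs of 0.09, and only that in *ets-4* was called (edgeR adjusted p = 0.047, and 0.032 in the blocked fit). Without the block this call was lost on leaving out any 1 of the 4 *ets-4* libraries, with changes of -0.22 to -0.32. DESeq2 called 0 members as lower in *ets-4*.

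The ubiquitin receptor genes, *rpn-10* and *rpn-13*, had calls in the blocked fit. *rpn-10* was at 243 and 230.0 CPM in wt, 219.7 and 197 CPM in *ets-4*, 216 and 179.6 CPM in *daf-16; ets-4* and 204 and 167 CPM in *pqm-1; ets-4* at 20 °C. At 4 °C it was at 273 and 268 CPM in wt, 259 and 231 CPM in *ets-4*, 248 and 219 CPM in *daf-16; ets-4* and 240.1 and 196 CPM in *pqm-1; ets-4*. The temperatures overlapped in *pqm-1; ets-4*, where replicate 2 at 4 °C was below replicate 1 at 20 °C. The log2 changes were 0.19, 0.23, 0.24 and 0.24, called in the blocked fit in all 4 strains (edgeR adjusted p = 0.044, 0.018, 0.012 and 0.015). *rpn-13* had changes of 0.16, 0.19, 0.13 and 0.21, called in the blocked fit in *ets-4* and *pqm-1; ets-4* (0.041 and 0.023).

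Among the ATPase genes, which encode the ring that unfolds substrates, the cold change had medians of 0.13, 0.16, 0.15 and 0.19 over the 4 strains. All 6 were higher at 4 °C in all 8 pairs. *rpt-5* had the largest changes (0.17, 0.24, 0.30 and 0.23) and was called in the blocked fit in the 3 mutant strains (edgeR adjusted p = 0.029, 0.0080 and 0.032) and not in wt (0.124). *rpt-2* was at 456 and 437 CPM in wt at 20 °C and at 512 and 495 CPM at 4 °C, and was called in the blocked fit in *pqm-1; ets-4* alone (0.22, edgeR adjusted p = 0.041). *rpt-6* was at 224 and 236 CPM in wt at 20 °C and at 246 and 249 CPM at 4 °C, and was called in no strain (0.11, 0.12, 0.11 and 0.16).

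In the core, the blocked fit called 2, 2, 2 and 4 of the 7 alpha genes as higher in the 4 strains. Of all 15775 genes it called 3004, 3358, 4068 and 4085 as higher. Of the 7 beta genes it called 0 in each strain. The alpha genes with a call were *pas-5*, *pas-7*, *pas-3* and *pas-1*, and the share of all genes called in at least 1 strain was not counted. *pas-5* was at 440.4 and 414 CPM in wt, 389.9 and 347 CPM in *ets-4*, 394 and 317 CPM in *daf-16; ets-4* and 352 and 289 CPM in *pqm-1; ets-4* at 20 °C. At 4 °C it was at 506 and 493 CPM in wt, 452 and 403 CPM in *ets-4*, 465 and 409 CPM in *daf-16; ets-4* and 449 and 355 CPM in *pqm-1; ets-4*. The temperatures did not overlap for *pas-5* in any strain. The log2 changes were 0.23, 0.22, 0.30 and 0.33, called in the blocked fit in all 4 strains (edgeR adjusted p = 0.032, 0.039, 0.0060 and 0.0040). *pas-3* had changes of 0.17, 0.19, 0.18 and 0.23, called in the blocked fit in *pqm-1; ets-4* alone (0.044). *pas-6* had the smallest mean change of the alpha genes, 0.04, and was called in no strain.

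The genes of the proteolytic beta subunits had small changes with cold. *pbs-1*, for the caspase-like site, was at 203 and 194 CPM in wt at 20 °C and at 192 and 212 CPM at 4 °C, so that the temperatures overlapped. *pbs-2*, for the trypsin-like site, was at 183 and 180.0 CPM at 20 °C and at 183 and 197 CPM at 4 °C in wt. *pbs-5*, for the chymotrypsin-like site, was at 262 and 262 CPM at 20 °C and at 279 and 289 CPM at 4 °C in wt. Over the 4 strains the log2 changes ran from 0.01 to 0.09 for *pbs-1*, from 0.07 to 0.12 for *pbs-2* and from 0.12 to 0.15 for *pbs-5*, with SEs of 0.14 to 0.16. None was called in either fit, although in wt the temperatures did not overlap for *pbs-2* and *pbs-5*. The medians over the 7 beta genes were 0.07, 0.13, 0.11 and 0.14, compared with 0.15, 0.17, 0.17 and 0.19 over the alpha genes, and whether the rings differ was not tested.

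**Figure D3:**
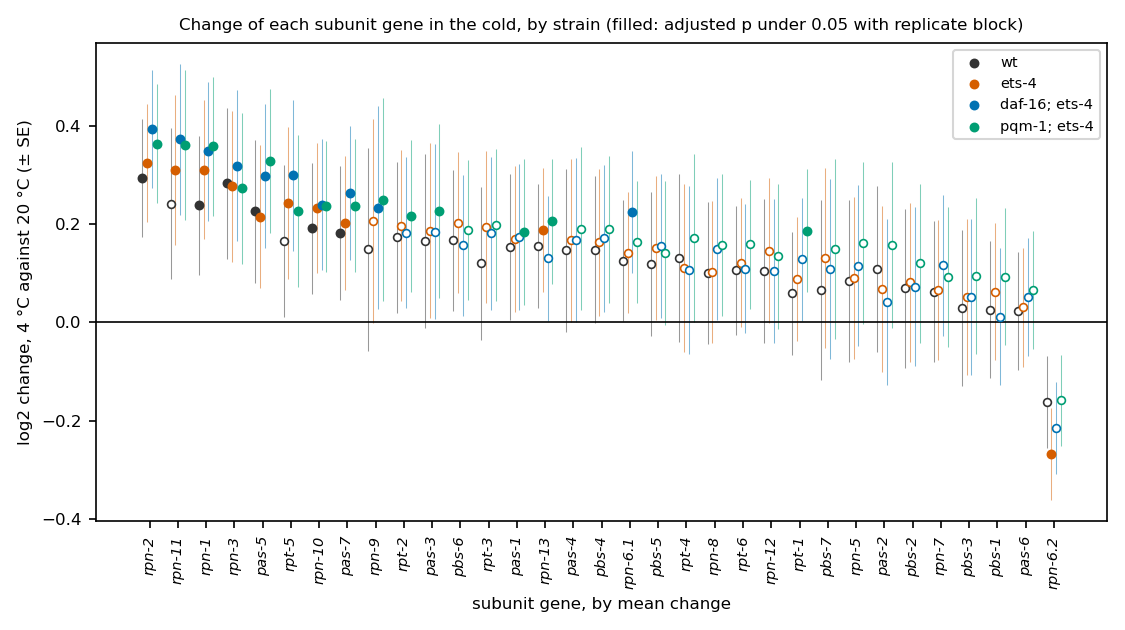
Log2 change with cold (4 °C against 20 °C, edgeR fit without the replicate term, TMM scaling) ± SE of each subunit gene in each strain, with genes ordered by their mean change, strains by colour, and filled points for changes called in the blocked fit. *rpn-2*, *rpn-11* and *rpn-1* stand at one end and *rpn-6.2*, the only gene with points below 0, at the other, and under scaling by library totals alone 28 to 31 of the 33 genes are above 0.

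Markers of single tissues also changed with cold in the same libraries. Of 10 oocyte and germ line markers, 8, 7, 10 and 10 had positive changes in the 4 strains, in the same order, with medians of 0.12, 0.14, 0.18 and 0.24. Of 10 body wall muscle markers, 7, 7, 10 and 10 had negative changes, with medians of -0.12, -0.07, -0.33 and -0.48. Of 9 intestine markers 8, 9, 9 and 9 had negative changes, with medians of -0.64, -0.88, -1.19 and -0.88. The medians were 0.04, 0.08, 0.08 and 0.18 for eggshell and early embryo markers and -0.60, -0.36, -0.44 and -0.58 for epidermis markers. They were 0.15, 0.16, 0.17 and -0.001 for neuron markers and -0.20, -0.10, -1.09 and -0.78 for sperm markers. In RNA of whole animals, a tissue's share of the RNA and a gene's level within that tissue cannot be told apart. The part of these shifts in the subunit changes was not tested.

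Whether the strains differed in their response to cold was tested by the interaction terms. No member was called for *ets-4* against wt, or for either double mutant against *ets-4*, where the background was 0% of 15775 genes in each. Among all genes 241, 428 and 560 had an unadjusted p under 0.05 in edgeR and among the members 0, and the blocked fit called 1, 6 and 0 genes with no member (0.00634% as lower in the first, 0.00634% as higher and 0.0317% as lower in the second). DESeq2 called no member. The medians over the members were 0.02, 0.01 and 0.03 with a median SE of 0.21. Differences of about that size, and some above it, would not have been called here.

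The next comparison, of *ets-4* with wt, asked what the *ets-4* mutation does to the subunit transcripts. All 33 genes had lower fitted values in *ets-4* at both temperatures, under each scaling tried and in each replicate number, but none passed the test. The median difference was -0.18 at 20 °C (0.884-fold) and -0.16 at 4 °C (0.894-fold), beside medians over all genes of 0.02 and 0.02. The *ets-4* libraries lay below the wt libraries without overlap for 31 genes at 20 °C, against 24.6% of all genes, and for 29 at 4 °C, against 26.3%. DESeq2 called no member at either temperature. The lowest adjusted edgeR p was 0.661 at 20 °C and 0.323 at 4 °C, and 0.141 and 0.066 in the blocked fit. Of all genes the fit without the block called 0.0951% as higher and 0.0380% as lower at 20 °C, and 0% in each direction at 4 °C, where 2025 genes had an unadjusted p under 0.05. The blocked fit called 1.17% as higher and 0.247% as lower at 20 °C, and 6% and 3.71% at 4 °C. Of the members, 21 at 20 °C and 19 at 4 °C had an unadjusted p under 0.05 in the blocked fit, and 0 and 1 without it.

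The family medians were close to each other. The medians at 20 °C were -0.17 for the alpha genes, -0.24 for the beta genes, -0.19 for the ATPase genes and -0.17 for the non-ATPase genes, and at 4 °C they were -0.18, -0.18, -0.16 and -0.16. The largest differences at 20 °C were those of *pbs-5* (-0.27, SE 0.15), *rpn-9* (-0.27, SE 0.21) and *pbs-1* (-0.24, SE 0.14). At 4 °C they were those of *pas-2* (-0.27), *pbs-5* (-0.25, SE 0.12) and *rpn-6.2* (-0.25, SE 0.09). *pbs-5* (chromosome I, 14719167 to 14720477) was at 262 and 262 CPM in wt against 236 and 199 CPM in *ets-4* at 20 °C, and at 279 and 289 CPM against 259 and 223 CPM at 4 °C. Neither temperature showed overlap between the strains for this gene. The smallest differences at 4 °C were those of *rpn-11*, *pas-1* and *rpn-6.1* (-0.13 to -0.14), and at 20 °C those of *rpn-6.2*, *pas-1* and *rpn-3* (-0.13 to -0.14).

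The size of the difference was not the same in both replicate numbers. The median over the members was -0.14 within replicate 1 and -0.23 within replicate 2 at 20 °C, and -0.08 and -0.23 at 4 °C. The subunit transcripts were lower in replicate 2 than in replicate 1 in all 8 groups, with a median difference (replicate 2 minus replicate 1) of -0.07 (20 °C) and -0.03 (4 °C) in wt. The same medians were -0.16 and -0.19 in *ets-4*, -0.28 and -0.23 in *daf-16; ets-4* and -0.33 and -0.31 in *pqm-1; ets-4*. Over all genes the same medians lay between -0.03 and 0.08. Whether a replicate number marks a shared day or batch for these libraries is not stated in the sources used here.

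**Figure D4:**
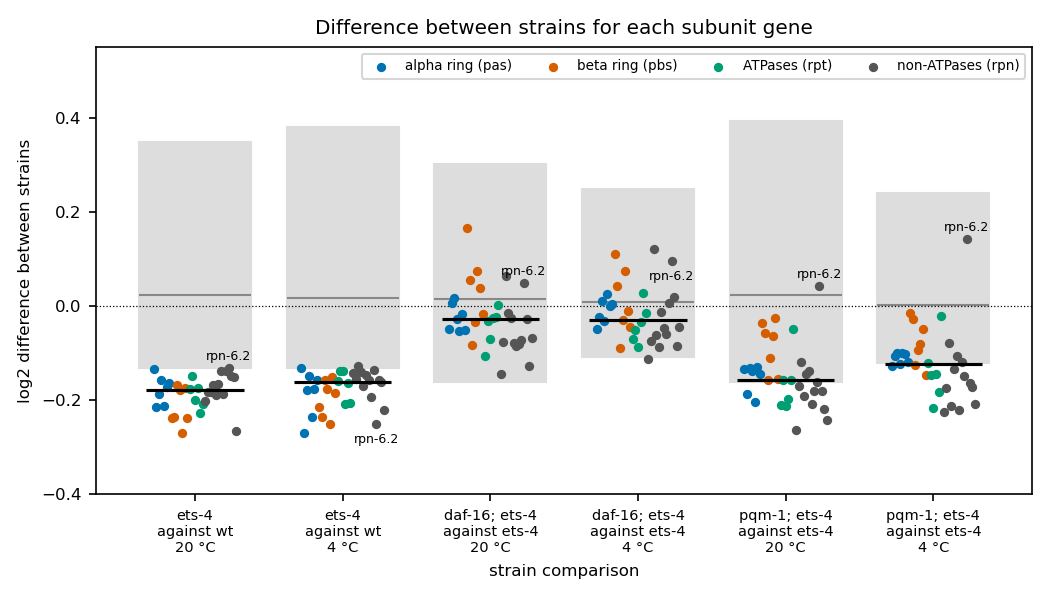
Log2 difference of each subunit gene between strains at 20 °C and 4 °C (edgeR fit without the replicate term), with the colour giving the family, the grey box the lower to upper quartile of all genes tested, the grey line their median and the black line the median of the 33 genes. All 33 points are below 0 for *ets-4* against wt, those for *daf-16; ets-4* against *ets-4* lie on both sides of 0, and for *pqm-1; ets-4* against *ets-4* all but *rpn-6.2* are below 0 with TMM scaling (30 at 20 °C and 29 at 4 °C with library totals alone).

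The double mutants ask whether the loss of *daf-16* or *pqm-1* alters the *ets-4* pattern. These comparisons use the same *ets-4* libraries as the comparison with wt, and their values are given side by side only. For *daf-16; ets-4* the members stood on both sides of 0, with 24 of 33 below 0 at 20 °C and 22 at 4 °C and a median of -0.03 at each temperature. Without the library labelled replicate 2 at 20 °C, in which *daf-16* was not low, the median at 20 °C was 0.10. None was called in either fit or by DESeq2, and 0 had an unadjusted p under 0.05 in either fit. The background without the block was 0.0254% as higher and 0.0571% as lower at 20 °C, and 0.00686% and 0.151% at 4 °C. In the blocked fit it was 6.5% and 3.3% at 20 °C, and 1.74% and 2.11% at 4 °C. *pbs-1* had the largest positive difference at 20 °C (0.17, SE 0.14), at 210.5 and 167 CPM against 179.5 and 157 CPM in *ets-4*, with the strains overlapping. *rpn-11* had the largest at 4 °C (0.12, SE 0.10), and *rpn-1* the largest negative one at both temperatures (-0.15 and -0.11, SE 0.14). At 20 °C *rpn-1* was the only member without overlap, below *ets-4*, and at 4 °C the only one was *rpn-6.2*, above *ets-4*. The share of all genes without overlap was not counted for this strain.

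For *pqm-1; ets-4*, 32 of the 33 genes were below *ets-4* at both temperatures, and 30 (20 °C) and 29 (4 °C) were when libraries were scaled by totals alone. The exception with TMM scaling was *rpn-6.2* (0.04 at 20 °C and 0.14 at 4 °C). The medians were -0.16 and -0.12, beside all-gene medians of 0.02 and 0.001, and -0.08 and -0.25 within replicates 1 and 2 at 20 °C and -0.06 and -0.19 at 4 °C. At 4 °C the median became 0.03 when the second replicate of *pqm-1; ets-4* was left out, and at 20 °C it became -0.002 without the second replicate of that strain. No gene was called without the block, where 0 had an unadjusted edgeR p under 0.05, or by DESeq2 (background 0.0127% as higher and 0.0317% as lower at 20 °C, 0.0206% and 0.0275% at 4 °C). The blocked fit called *rpn-1* at 20 °C alone (-0.27, edgeR adjusted p = 0.038, background 10.4% as higher and 6.62% as lower, and 3.8% and 2.1% at 4 °C), for which the fit without the block gave -0.26 with an SE of 0.14 and an adjusted p of 0.325. *rpn-1* was at 505 and 403 CPM in *pqm-1; ets-4* and at 581 and 509.9 CPM in *ets-4* at 20 °C. Both libraries of *pqm-1; ets-4* were below those of *ets-4*, and *rpn-1* was the only member without overlap at 20 °C (1 of 33, against 21.5% of all genes). The same gene was without overlap in *daf-16; ets-4*. At 4 °C *rpn-7* was the 1 gene below *ets-4* without overlap (against 15.9% of all genes). *rpn-6.2* lay above *ets-4* without overlap, as it did in *daf-16; ets-4*, and the share of all genes above was not counted.

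wt stood highest and *pqm-1; ets-4* lowest within each replicate number for most of the genes, whereas the order of *ets-4* and *daf-16; ets-4* differed between replicates. wt was above *ets-4* for 33 of 33 genes in each of the 4 combinations of temperature and replicate number. *pqm-1; ets-4* was the lowest of the 4 strains for 30 and 32 genes at 20 °C in replicates 1 and 2, and for 27 and 32 genes at 4 °C. *ets-4* was above *daf-16; ets-4* for 14 and 29 genes at 20 °C in replicates 1 and 2, and for 17 and 24 genes at 4 °C. Summed over the 33 genes, the level at 20 °C was 10859 ± 363 CPM in wt, 9549.8 ± 826 CPM in *ets-4*, 9283 ± 1236 CPM in *daf-16; ets-4* and 8530.2 ± 1361.5 CPM in *pqm-1; ets-4* (mean ± SD, n = 2). At 4 °C it was 12039 ± 189.7 CPM, 10777 ± 999.5 CPM, 10615 ± 1223 CPM and 9860.4 ± 1503 CPM in the same order. Neighbouring strains other than wt lay within the SDs of each other.

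**Figure D5:**
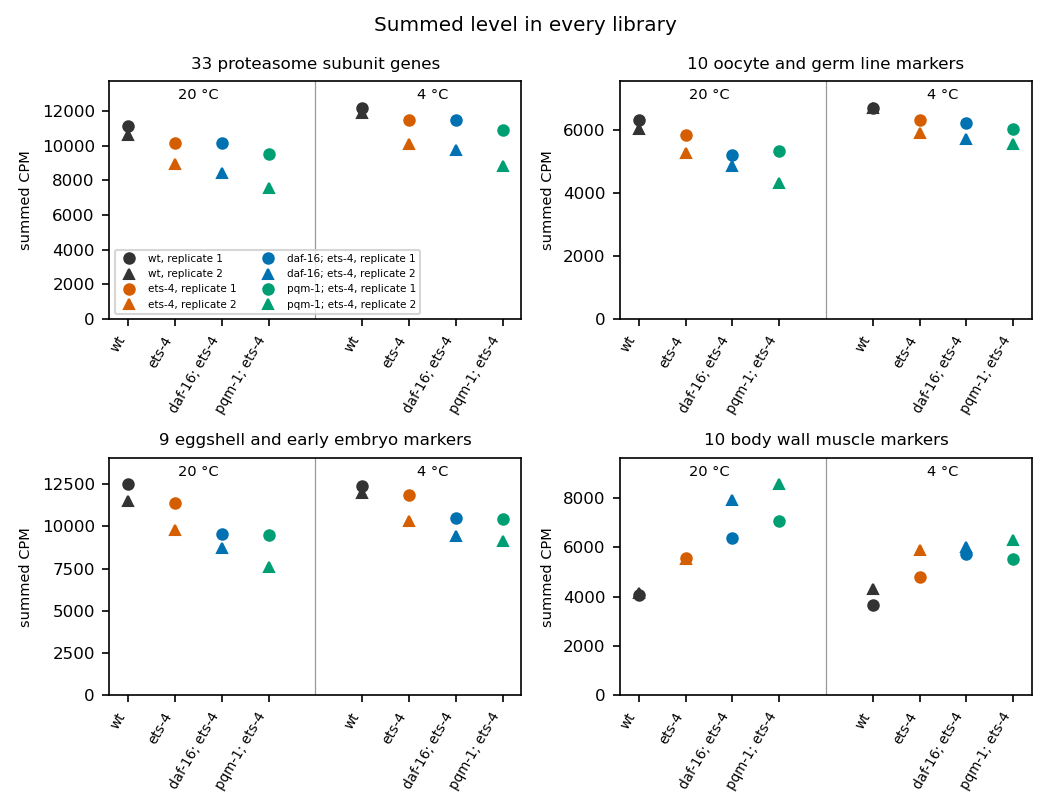
Summed CPM of the 33 subunit genes in each library by strain and temperature, beside the sums of the oocyte and germ line, eggshell and early embryo, and body wall muscle markers, with circles for replicate 1 and triangles for replicate 2. The subunit, germ line and eggshell sums of wt lie above those of the mutants at each temperature, and the muscle sums of wt lie below those of the mutants.

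Germ line, eggshell and muscle markers also differed between wt and the mutants. The summed level of the 10 oocyte and germ line markers was 6031 to 6311 CPM in wt and 4319 to 5846 CPM in the mutants at 20 °C, and 6684 to 6699 CPM against 5541 to 6329 CPM at 4 °C. The sum of the 9 eggshell and early embryo markers was 11476 to 12488 CPM in wt and 7602 to 11362 CPM in the mutants at 20 °C. In contrast, the sum of the 10 body wall muscle markers was 4054 to 4124 CPM in wt and 5523 to 8533 CPM in the mutants at 20 °C, and 3643 to 4305 CPM against 4808 to 6281 CPM at 4 °C. For *ets-4* against wt, 8 of 10 germ line markers at 20 °C and 9 of 10 at 4 °C were lower, with medians of -0.17 and -0.13, and 10 of 10 muscle markers were higher at both temperatures. In the same comparison the medians at 20 °C and 4 °C were 0.23 and 0.20 for intestine markers. They were 0.13 and 0.14 for epidermis markers and 0.29 and 0.25 for neuron markers. For *pqm-1; ets-4* against *ets-4*, 9 of 9 eggshell markers were lower at both temperatures, with medians of -0.30 at 20 °C and -0.17 at 4 °C. Of 10 germ line markers in that comparison, 3 were higher at 20 °C and 5 at 4 °C (medians -0.18 and -0.06). For *daf-16; ets-4* against *ets-4*, 0 and 1 of 9 eggshell markers were higher, with medians of -0.17 and -0.12. The subunit medians there were -0.03 at both temperatures. The summed sperm markers were at 28.5 to 31.8 CPM in wt and 34.1 to 114 CPM in the mutants at 20 °C, and at 26.1 to 30.9 CPM against 31.9 to 72.1 CPM at 4 °C. No marker was at 0 in all libraries, and the part of these marker differences in the subunit levels was not tested.

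Genes that act with the proteasome were counted as lists. Of 6 regulators of proteasome genes, 2, 2, 2 and 3 were called as higher in the cold in the 4 strains, in the same order, and 0 as lower, with medians of 0.18, 0.15, 0.22 and 0.26. The blocked fit called 3, 2, 4 and 4 as higher. For this list and the lists that follow, the share of all genes called as higher was 12.9%, 15%, 19% and 18% without the block and 19%, 21.3%, 25.8% and 25.9% with it. The shares called as lower with cold are those given above for the subunit genes. *skn-1*, whose long isoform is the regulator of proteasome genes named above, was at 270.3 and 261 CPM in wt at 20 °C and at 367 and 369 CPM at 4 °C. It rose by 0.47, 0.58, 0.75 and 0.59 on the log2 scale (edgeR adjusted p = 0.0062, 0.0016, 0.00027 and 0.0014), with the isoforms counted together. *ddi-1*, the protease that cleaves SKN-1A, was at 154 and 138 CPM at 20 °C and at 222 and 206 CPM at 4 °C in wt, and rose by 0.55, 0.68, 0.95 and 0.82 (edgeR adjusted p from 9.4e-05 to 0.0040). *png-1*, the glycanase that edits SKN-1A, was called without the block in *pqm-1; ets-4* alone (0.25, edgeR adjusted p = 0.026), and the blocked fit also called it in wt (0.021) and *daf-16; ets-4* (0.016). For both *skn-1* and *ddi-1* the libraries at 4 °C were above those at 20 °C without overlap in every strain.

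Of 10 proteasome-associated factors found in the table (*ecpo-1* was not found), 1, 5, 3 and 3 were called as higher in the cold and 0 as lower, and the blocked fit called 6, 5, 6 and 6. *ubql-1*, a ubiquilin shuttle factor, rose by 0.50, 0.47 and 0.42 in the 3 mutant strains (edgeR adjusted p = 0.014, 0.017 and 0.031) and was at 0.33 in wt (0.083, and 0.0048 in the blocked fit). *ubh-4*, a deubiquitinase that binds the proteasome, rose by 0.43, 0.41 and 0.50 in the mutant strains (0.034, 0.036 and 0.015) and was at 0.32 in wt (0.108, and 0.0051 in the blocked fit). *aip-1*, a zinc finger protein that binds the proteasome, rose by 0.43 in wt, 0.52 in *ets-4* and 0.52 in *pqm-1; ets-4* (0.039, 0.013 and 0.013), and had 0.26 in *daf-16; ets-4* (0.169, and 0.048 in the blocked fit).

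Of 24 ubiquitin, ligase and segregase genes found in the table, 5, 4, 10 and 7 were called as higher in the cold and 1, 1, 1 and 0 as lower, with medians of 0.14, 0.19, 0.26 and 0.27. The blocked fit called 9, 11, 16 and 16 as higher and 1, 1, 2 and 1 as lower. *ubq-1*, the polyubiquitin gene, was at 1415 and 1394 CPM in wt, 1249.6 and 1171 CPM in *ets-4*, 1228 and 1116 CPM in *daf-16; ets-4* and 1188 and 1063 CPM in *pqm-1; ets-4* at 20 °C. At 4 °C it was at 2617 and 2730.0 CPM in wt, 2593 and 2507 CPM in *ets-4*, 2516 and 2479 CPM in *daf-16; ets-4* and 2349 and 2128 CPM in *pqm-1; ets-4*. Every library at 4 °C was above every library at 20 °C. *ubq-1* rose by 0.93, 1.08, 1.09 and 0.99 (edgeR adjusted p from 8.5e-06 to 3.0e-05), and since it consists of repeats and only uniquely mapped reads were counted, its level is uncertain.

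*let-70*, a ubiquitin-conjugating enzyme, rose by 0.38, 0.37, 0.43 and 0.42 (edgeR adjusted p from 0.0019 to 0.0052). *cul-6*, a cullin induced by intracellular infection, rose by 2.02, 2.57, 2.50 and 2.95 (1.2e-05 to 0.00018), and *rbx-1*, the RING subunit of cullin ligases, by 0.26, 0.26, 0.34 and 0.42 (0.0030 to 0.045). *ufd-2*, a ubiquitin chain elongation factor, fell by 0.31 in wt, 0.39 in *ets-4* and 0.29 in *daf-16; ets-4* (0.011, 0.0027 and 0.012) and had -0.16 in *pqm-1; ets-4* (0.130, and 0.036 in the blocked fit). Between strains the fit without the block called 0 genes of the 3 lists, whereas the blocked fit called some. For *ets-4* against wt it called *sel-1*, *sel-9*, *ufd-2* and *chn-1* as lower at 4 °C and *ufd-1* as higher at both temperatures. For *daf-16; ets-4* against *ets-4* it called *ufd-1* as lower at both temperatures and *ufd-2* as lower at 20 °C. For *pqm-1; ets-4* against *ets-4* it called *ddi-1* and 7 of 24 ubiquitin, ligase and segregase genes as lower at 20 °C, beside 1044 of all 15775 genes. For the other strain comparisons the shares of all genes called by the blocked fit are given above.

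No subunit gene met the study's rule for differential expression, a difference of at least 2-fold in both replicates on log2(scaled count + 8). The study compared strains at 4 °C in this way, and the rule's use here on the other comparisons is a description. In the 10 comparisons of temperatures and strains, 0 of the 33 genes met it, also at 1.5-fold, with a pseudocount of 1, or with the replicates paired the other way. The differences of the members within replicate numbers ran from -0.38 to 0.41 on this scale. Of all 20447 genes, 3.22%, 3.67%, 3.5% and 3.31% met the rule as higher in the cold in the 4 strains, in the order used above, and 8.31%, 8.39%, 11.4% and 10.6% as lower. For *ets-4* against wt it was 0.499% as higher and 0.249% as lower at 20 °C, and 0.694% and 0.108% at 4 °C. For *daf-16; ets-4* against *ets-4* it was 4.63% and 0.191% at 20 °C, and 0.797% and 0.396% at 4 °C, and for *pqm-1; ets-4* against *ets-4* it was 3.19% and 0.245%, and 0.812% and 0.166%.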

How the data were processed

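The deposited table holds raw read counts per protein-coding gene, made by the authors from poly(A)-selected libraries (TruSeq stranded mRNA kit, single-end reads of 50 cycles). Reads were aligned with STAR to WBcel235 with at most 3 mismatches, and uniquely mapped reads over exons were counted. The annotation release and the strand setting of the counting are not given in the sources used here.

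Counts were analysed in R 4.3.3 with edgeR 4.0.16 (filterByExpr, TMM, robust quasi-likelihood test, Benjamini-Hochberg over all genes tested, adjusted p under 0.05). Strain comparisons at 4 °C were fitted on the 8 cold libraries, and cold comparisons, strain comparisons at 20 °C and interactions on all 16. SEs were derived from the log2 fold change and its F statistic. CPM use TMM library sizes over all 16 libraries, and lengths are the union of exons in the Ensembl 115 annotation of WBcel235, which held 98.6% of the genes. No sequence was printed, since none was used here. DESeq2 1.42.0, other scalings, no filter, other sets of libraries and leaving out each library were alternatives. The fit without the block was tested on simulated counts that held no replicate effect and changes larger than those of the members. The blocked fit was not tested in this way.

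The labels give every group replicate numbers 1 and 2. The difference between replicate 2 and replicate 1 correlated across 11954 genes in all 28 pairs of groups (lowest r 0.306, mean 0.563), so the numbers were taken to pair the samples and a fit with the replicate number as a term is given beside the one without it.

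Named in full were subunits of set roles and, per comparison, the 3 members with the largest rise and fall. Other members were singled out after their values were seen. From pathway lists only genes past the test were named, but not all of them. *ecps-1*, *psme-3*, *cul-2*, *cul-3*, *cul-4*, *cul-5*, *ubc-13* and *ufd-1* were also called as higher with cold without the block in at least 1 strain and are not described. The members, gene lists and markers were chosen with earlier results of these data known. Of 69 markers for 7 cell types, 68 were found.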

Additional observations from a re-analysis of the deposited data

How the results depend on the processing

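The medians over the members kept their sign under each scaling, filter, test and set of libraries tried, except for 2 differences in cold response near 0: that between *ets-4* and wt was -0.003 with DESeq2 or its size factors and -0.002 with no filter, and that between *daf-16; ets-4* and *ets-4* was -0.008 with only the libraries compared. The replicate block called 6, 10, 10 and 14 members with cold in the 4 strains in place of 0, 1, 1 and 1, and 1 for *pqm-1; ets-4* against *ets-4* at 20 °C in place of 0; as a term per temperature the replicate block gave 3, 4, 10, 8 and 1. It changed the number of calls in no other comparison. With cold, DESeq2 called 1 member in wt, 1 in *ets-4* and 2 in each double mutant, all as higher. In *ets-4* it thus did not keep the call of *rpn-6.2* as lower. Library totals alone called 1, 2, 3 and 2 over the 4 strains. DESeq2 size factors in edgeR called 0 in *ets-4*, and no filter 0 in *ets-4* and 0 in *pqm-1; ets-4*. A fit on only the libraries compared called 16 in wt and 0, 0 and 0 in the mutants. The median with cold in wt was 0.17 with DESeq2 and with its size factors, and library totals alone gave 0.069, 0.10, 0.092 and 0.11 over the 4 strains. Beyond these alternatives' own construction, the cause was not tested.

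Leaving out 1 library sets replicate numbers against each other unevenly, and the lone sample is then assumed to vary like the other groups. The medians with cold ran from 0.10 to 0.15 (wt), 0.048 to 0.26 (*ets-4*), 0.0041 to 0.32 (*daf-16; ets-4*) and -0.056 to 0.39 (*pqm-1; ets-4*), the lowest without the first replicate of *pqm-1; ets-4* at 4 °C. Those of *ets-4* against wt ran from -0.24 to -0.11 at 20 °C and -0.24 to -0.07 at 4 °C, of *daf-16; ets-4* against *ets-4* from -0.23 to 0.10 and -0.15 to 0.10, and of *pqm-1; ets-4* against *ets-4* from -0.38 to -0.0017 and -0.30 to 0.034. The interaction medians ran from -0.10 to 0.12, -0.14 to 0.19 and -0.21 to 0.23. Members called with cold ran from 0 to 2 in *daf-16; ets-4* and from 0 to 4 in *pqm-1; ets-4*. With 2 libraries a group, differences of the size seen here are near the SE of a single gene.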
